A study of Mus musculus with 4 samples.

Results

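Binding of IGF2BP3 was examined on the transcripts of 9 genes of meiotic recombination and DNA repair, namely Spo11, Hormad1, Atm, Brca1, Brca2, Dmc1, Msh4, Msh5 and Mlh3. A read cluster belonged to a gene when its centre lay inside the gene span on the same strand (GENCODE M21, mm10), which gave 282 of 337234 clusters in replicate 1 and 183 of 216354 in replicate 2. The gene list was set by name, with earlier results of these data known. All 9 genes had clusters in both replicates, as did 12312 of the 21951 genes annotated as protein-coding. In eCLIP-seq, UV light fixes proteins to the RNA they touch, the protein of interest is precipitated with its RNA fragments, and reads that pile up along a transcript form clusters. The study paired 1 IGF2BP3 immunoprecipitation (IP) library with 1 size-matched input (SMInput) library in each of 2 replicates, 4 samples in all. Every library came from testes of wild type C57BL/6 males aged 8 weeks, triturated and crosslinked 3 times at 254 nm with 400 mJ/cm2, and SMInput came from 2% of the lysate without an antibody. The tissue held germ cells and somatic cells together, so the cells that carried a bound transcript, and their number against the RNA in each, cannot be told apart.

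During meiosis, SPO11 cuts DNA on purpose, the broken ends are trimmed and loaded with the recombinase DMC1, and repair from the homologous chromosome leaves a few crossovers that hold homologs together until they separate. ATM senses the breaks and limits their number, BRCA2 helps to load DMC1, and the MutS homologs MSH4 and MSH5 with the MutL protein MLH3 guide chosen intermediates into crossovers. IGF2BP3 is an RNA-binding protein that can recognise m6A-modified mRNA, often in the 3′UTR, and influences the stability and translation of its targets.

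Most clusters on the 9 genes showed some enrichment in the IP, but few were significant peaks by the study's thresholds, which ask that log2(fold change) and −log10(P value) both reach 2. Of the 282 clusters of replicate 1, 9 were significant peaks (3.19%), against 4.92% of all clusters in the replicate. In replicate 2, 23 of 183 were significant (12.6%), against 13.2% of all clusters. Both shares lay close to the background, so as a group these transcripts did not stand apart from the rest of the testis transcriptome by this count. The median log2(fold change) of their clusters was 1.35 in replicate 1 and 1.43 in replicate 2, next to 1.5 and 1.53 over all clusters. A median near 1.5 was thus the ordinary level of a listed cluster. Read numbers were recovered for 247 of the 282 clusters and 168 of the 183, and all statements on the most reads concern these. The clusters without recovered reads had a log2(fold change) of 0.18 or less, so they were not a random part.

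Counted per gene, 7 of the 9 had a significant peak in replicate 1 (77.8%), where 40.8% of protein-coding genes with a cluster did, and 7 of the 9 had one in replicate 2 (77.8%, background 62.8%). Spo11, Atm, Brca1, Brca2, Dmc1 and Mlh3 had one in both, which makes 6 of 9 (66.7%) against 39.1% of the genes with clusters in both replicates. Msh4 had a significant peak in replicate 1 alone, Hormad1 in replicate 2 alone, and Msh5 in neither. These genes also carried more clusters than most, with a median of 36.0 per gene in replicate 1 and 17.0 in replicate 2, against 12.0 and 9.0 over all protein-coding genes with a cluster, and the part of this in the share of genes with a peak was not tested. Peaks that overlapped between the replicates on the same strand were rarer. They were found in the 3′UTRs of Spo11 and Atm only, 2 of the 9 genes (22.2%), against 16.6% of the genes with clusters in both replicates.

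**Figure D1:**
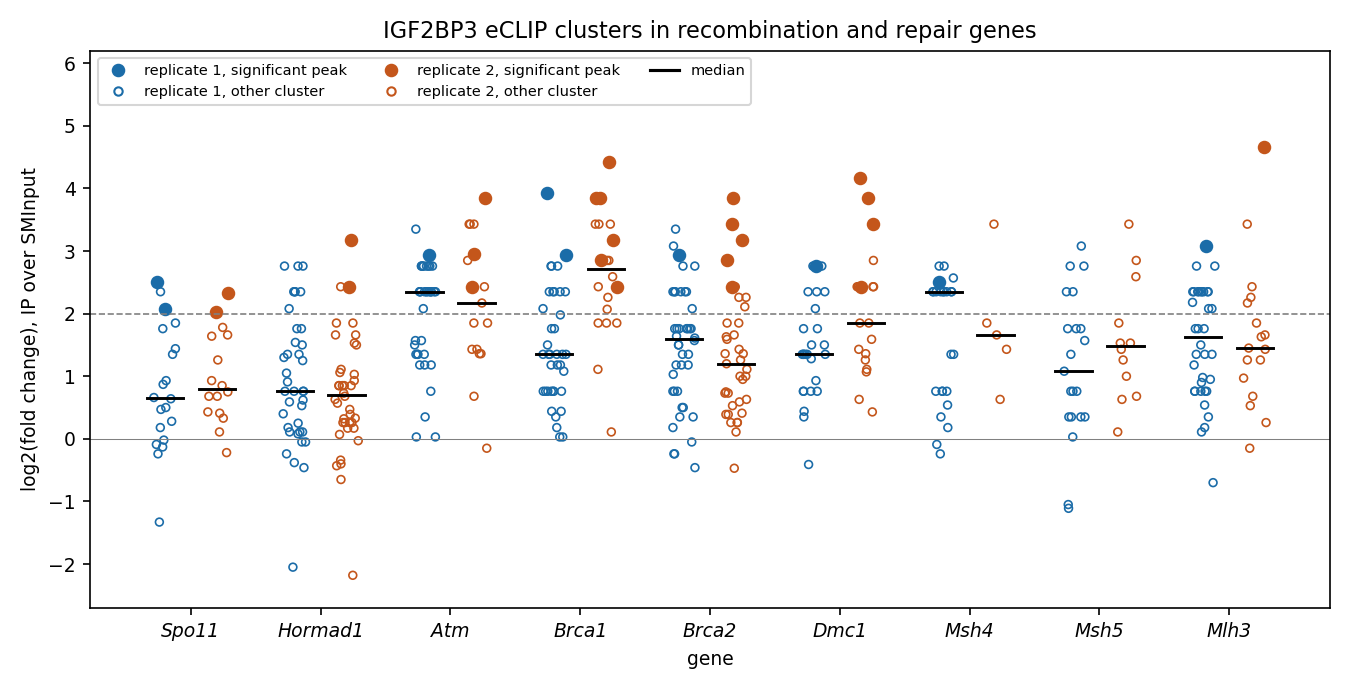
log2(fold change) of IP over SMInput (vertical axis) for every cluster of the 9 genes, with replicate 1 in blue on the left and replicate 2 in orange on the right of each gene, spread sideways at random. Filled points are significant peaks, black bars are medians and the dashed line marks 2; Brca1 in replicate 2 has the highest median (2.72).

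The clusters were then split by region of the transcript. Coding sequence (CDS) held 123 clusters of the 9 genes in replicate 1 and 79 in replicate 2, with 6 and 4 significant peaks (4.88% and 5.06%, background 5.28% and 7.96% of all CDS clusters). The 3′UTRs held 19 clusters in replicate 1, 2 of them significant (10.5%, background 19.4%). In replicate 2 they held 18, of which 9 were significant (50%, background 34.5%). Relative to the background the 3′UTRs thus came out lower in replicate 1 and higher in replicate 2. Introns held 137 and 79 clusters with 1 and 9 significant peaks (0.73% and 11.4%, background 1.94% and 10.8%). The 5′UTRs held 3 clusters with 0 significant peaks in replicate 1 (background 5.09%) and 6 with 1 in replicate 2 (background 8.63%).

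Spo11, which encodes the transesterase that makes meiotic double-strand breaks, had 20 clusters in replicate 1 and 16 in replicate 2, and 2 significant peaks in each. At chr2:172993437-172993520 (plus strand, last exon, 3′UTR) replicate 1 had 10 IP and 3 SMInput reads, a log2(fold change) of 2.50 and a −log10(P value) of 2.18. At chr2:172993464-172993548 replicate 2 had 9 IP and 8 SMInput reads, a log2(fold change) of 2.02 and a −log10(P value) of 2.33. These peaks shared 57 bases, and their centres lay 375 and 403 bases after the stop codon in a 3′UTR of 473 bases, near the end of the transcript. The 95% exact (Clopper-Pearson) intervals of the log2(fold change), 0.54 to 5.0 and 0.47 to 3.59, overlapped; all such intervals cover counting error only, and clusters of a gene are not replicates. The middle of the same 3′UTR also gathered reads in both replicates. Replicate 2 had there the cluster with the most IP reads of all 9 genes, chr2:172993233-172993439, with 21 IP and 22 SMInput reads, a log2(fold change) of 1.78 (0.85 to 2.71) and a −log10(P value) of 4.43, just under the fold threshold. In replicate 1 the cluster at chr2:172993248-172993344 had 14 IP and 13 SMInput reads and a log2(fold change) of 0.87 (−0.33 to 2.08).

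The other significant peaks of Spo11 were intronic. In intron 4, chr2:172984985-172985143 had 20 IP and 8 SMInput reads in replicate 1, the most IP reads of any significant peak of the 9 genes, with a log2(fold change) of 2.08 (0.84 to 3.48) and a −log10(P value) of 3.44. Replicate 2 had a cluster inside it with 7 IP and 15 SMInput reads and a log2(fold change) of 0.75 (−0.79 to 2.13), so that position was enriched past the thresholds in 1 replicate and the intervals overlapped. In intron 1, chr2:172981648-172981685 passed in replicate 2 with 7 IP and 5 SMInput reads (log2(fold change) 2.33, −log10(P value) 2.19), and replicate 1 listed no cluster there. The coding exons of Spo11 held 9 and 7 clusters with medians of 0.47 and 0.43 and no significant peak.

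Hormad1, whose HORMA-domain protein sits on unsynapsed chromosome axes and promotes break formation, had the densest clusters relative to its length in both replicates, 13.6 and 14.3 per 10 kb of gene span, and low medians of log2(fold change). Its 38 clusters in replicate 1 had a median log2(fold change) of 0.76 and included 0 significant peaks. The one with the most IP reads, chr3:95562508-95562625 in the coding part of exon 3, had 17 IP and 20 SMInput reads and a log2(fold change) of 0.53 (−0.50 to 1.53). Replicate 2 had 17 IP and 30 SMInput reads at chr3:95562501-95562590 and a log2(fold change) of 1.03 (0.08 to 1.93). This stretch of coding sequence stayed below the fold threshold in both replicates. Of its 40 clusters in replicate 2, 2 were significant, both inside intron 15 of the principal transcript. The peak at chr3:95585702-95585788 (plus strand) had 9 IP and 6 SMInput reads, a log2(fold change) of 2.43 (0.78 to 4.20) and a −log10(P value) of 2.83, and it fell in the 3′UTR of a shorter transcript, 187 bases after the stop codon and 53 before the end. The other, chr3:95586945-95586987, had 5 IP and 2 SMInput reads (log2(fold change) 3.17, −log10(P value) 2.16). Replicate 1 listed no cluster at either place. At the other extreme, a cluster in intron 1 was poorer in the IP than in the input, at −2.05 in replicate 1 for chr3:95560938-95561030 and −2.18 in replicate 2 for chr3:95560949-95560968, the lowest values of the 9 genes.

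Atm, which encodes the kinase that signals double-strand breaks, had a shared 3′UTR peak with close values in the replicates. At chr9:53439515-53439615 (minus strand, 3′UTR) replicate 1 had 18 IP and 4 SMInput reads, a log2(fold change) of 2.93 (1.33 to 4.95) and a −log10(P value) of 4.64. At chr9:53439495-53439646 replicate 2 had 13 IP and 6 SMInput reads, a log2(fold change) of 2.96 (1.47 to 4.65) and a −log10(P value) of 4.77. All 101 bases of the first lay inside the second, the centres were 181 and 176 bases after the stop codon, and these were the highest −log10(P value) of the significant peaks of the 9 genes in either replicate. Replicate 2 had a further significant peak downstream, chr9:53439330-53439404, with 9 IP and 6 SMInput reads and a log2(fold change) of 2.43 (0.78 to 4.20). Its centre was 379 bases after the stop codon, inside the longer of the annotated 3′UTRs (597 bases) and past the end of the shorter one (378 bases). Replicate 1 had 7 IP and 4 SMInput reads at chr9:53439313-53439368, a log2(fold change) of 1.57 (−0.41 to 3.79), on the same side of 0 but not significant. The third significant peak of replicate 2, 8 bases in intron 22 at chr9:53497960-53497967, rested on 4 IP reads and 1 SMInput read. In the coding exons, 18 and 9 clusters held no significant peak. Atm was long and thinly covered, with 3.79 and 1.74 clusters per 10 kb and no more than 6 and 9 SMInput reads in a cluster.

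**Figure D2:**
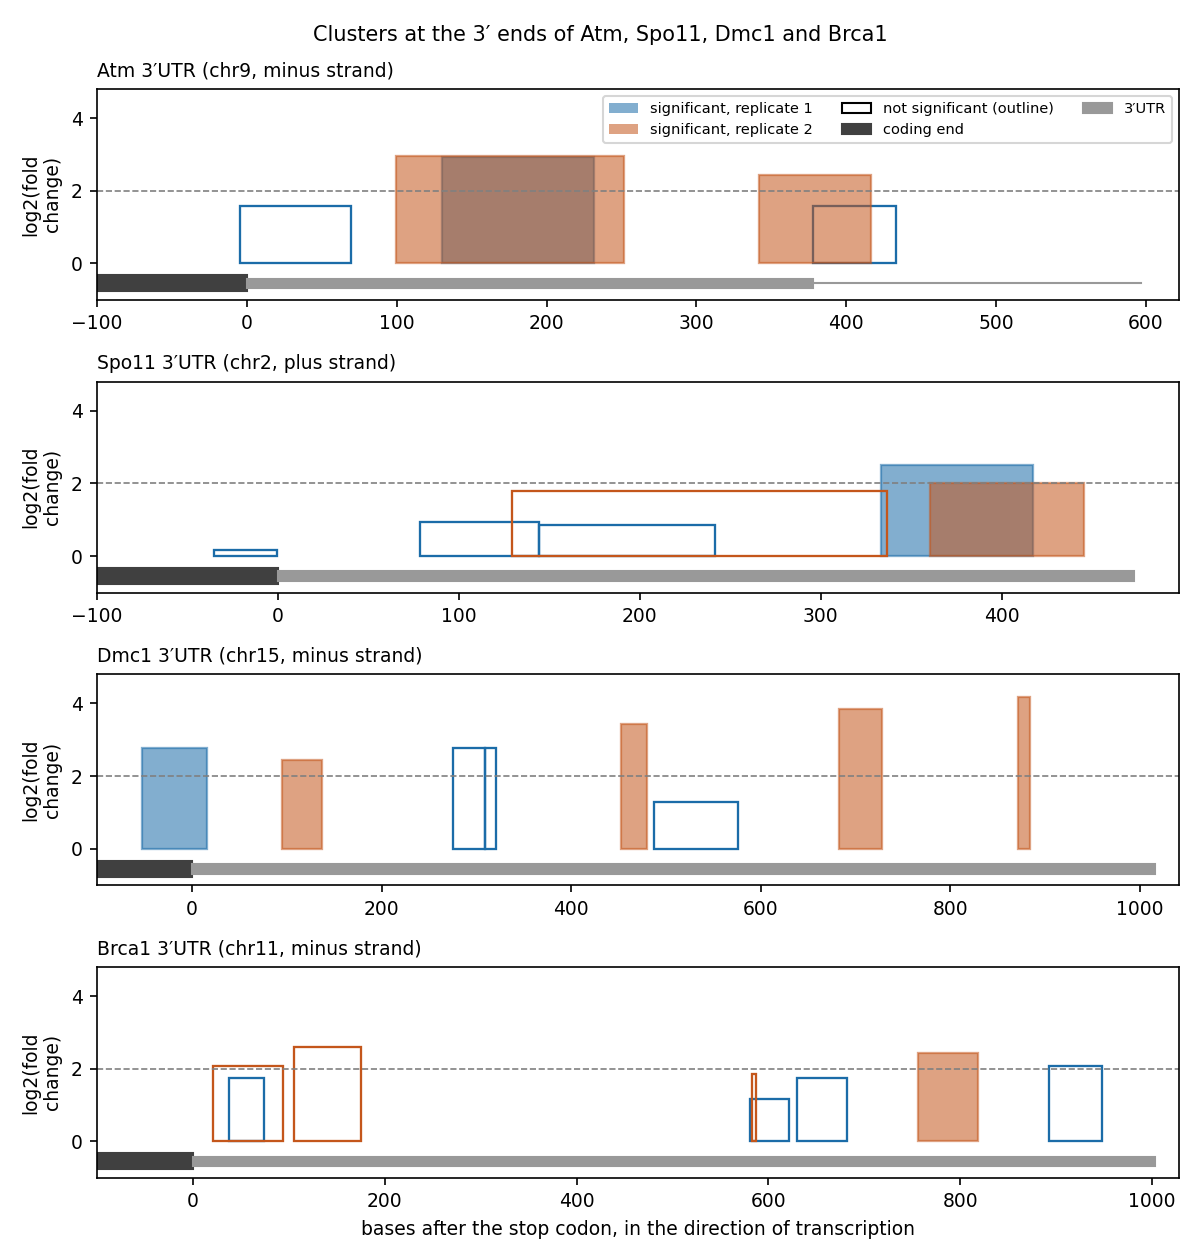
Clusters at the 3′ ends of Atm, Spo11, Dmc1 and Brca1, placed by bases after the stop codon in the direction of transcription (horizontal axis) and drawn to the height of their log2(fold change) (vertical axis, dashed line at 2), with replicate 1 in blue and replicate 2 in orange. Filled boxes are significant peaks and outlines are other clusters. The dark and grey bars are the coding end and the 3′UTR of the principal transcript, and the thin line of Atm is the longer 3′UTR. Clusters that reach past the edge of a panel are not drawn, among them the significant replicate 1 peak of Brca1 at chr11:101489808-101489887. Filled boxes of both colours overlap in Atm and Spo11 only.

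The 30 bases of mm10 in the middle of the stretch shared by both replicates are given for these 3′UTR peaks, because they are the positions where both libraries passed the thresholds. Read 5′ to 3′ on the strand of the gene, that of Spo11 was chr2:172993478-172993507 and that of Atm was chr9:53439551-53439580. They were searched for GGAC, the usual core of an m6A site, for GAACA and for AAACC, which the study names, and for CACA, a CA-rich sequence, and a match is a description only.
Spo11 3′UTR: ttcctctagtactttcttttgcctcatggt
Atm 3′UTR: atccattcgtaggatacgtgctgactctta
Neither window held any of these sequences. In windows of 30 bases around the centres of the peaks instead, CACA was in 1 of the 2 significant 3′UTR peaks of replicate 1 and in 0 of the 9 of replicate 2 (9.64% of all its 3′UTR clusters). Over all 3′UTR clusters of replicate 1, 7.99% of such windows held GGAC, 2.04% GAACA, 1.94% AAACC and 10.7% CACA.

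Brca1, a repair gene whose protein also gathers on unsynapsed axes in meiosis, had 38 clusters in replicate 1 with 2 significant peaks and 20 clusters in replicate 2 with 6. Both peaks of replicate 1 lay in coding exons of the minus strand. The peak at chr11:101533976-101534035, at the edge of exon 5, had 9 IP reads and 1 SMInput read, a log2(fold change) of 3.93 (1.08 to 9.39) and a −log10(P value) of 3.05. The peak at chr11:101489808-101489887, in exon 23 and centred 80 bases before the stop codon, had 9 IP and 2 SMInput reads, a log2(fold change) of 2.93 (0.66 to 6.18) and a −log10(P value) of 2.49. Replicate 2 listed no cluster at either position. Its own significant peaks were shallower and elsewhere, with 1 in the 3′UTR, 1 in CDS and 4 in intron 2. The intron peaks abut in pairs, chr11:101541405-101541458 with chr11:101541459-101541481 and chr11:101543454-101543467 with chr11:101543468-101543511. Those with the most IP reads had 6 each, among them chr11:101541459-101541481 in intron 2 with 1 SMInput read, a log2(fold change) of 4.43 (1.39 to 9.96) and a −log10(P value) of 3.22. The neighbouring chr11:101541405-101541458 had 6 IP and 3 SMInput reads, and the peak in the 3′UTR, chr11:101488949-101489011, had 6 IP and 4 SMInput reads. No significant peak of Brca1 met a cluster of the other replicate. In the 3′UTR the replicates did meet just after the stop codon, where chr11:101489694-101489729 had a log2(fold change) of 1.76 in replicate 1 and chr11:101489674-101489746 had 2.07 in replicate 2, with −log10(P value) of 1.07 and 1.95, short of the threshold in both.

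Brca2, whose protein helps to load DMC1 onto single-stranded DNA, had 42 and 37 clusters, most of them in its long coding sequence (27 and 31). Replicate 1 had 1 significant peak, chr5:150568999-150569048 (plus strand, coding part of the last exon), with 9 IP and 2 SMInput reads, a log2(fold change) of 2.93 (0.66 to 6.18) and a −log10(P value) of 2.49. Replicate 2 had a cluster over nearly the same bases, chr5:150568998-150569042, with 5 IP and 5 SMInput reads, a log2(fold change) of 1.85 (−0.27 to 3.97) and a −log10(P value) of 1.34. The enrichment had the same direction in both replicates, and the intervals overlapped. Of the 5 significant peaks of replicate 2, the one with the most reads was chr5:150540361-150540423 in exon 11, with 10 IP and 4 SMInput reads, a log2(fold change) of 3.17 (1.38 to 5.30) and a −log10(P value) of 4.01. Replicate 1 listed no cluster there. The others lay in the 5′UTR, in intron 2 and in exons 10 and 11, on 4 to 6 IP reads each. In the 5′UTR, chr5:150523170-150523225 had 6 IP and 3 SMInput reads and a log2(fold change) of 2.85 in replicate 2, and the cluster of replicate 1 beneath it had 4 IP and 4 SMInput reads and a log2(fold change) of 0.76.

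Dmc1, the recombinase made only in meiosis, had its significant peaks at different positions in the replicates. Replicate 1 had 26 clusters and 1 significant peak, chr15:79562498-79562565 (minus strand), which spanned the stop codon in exon 14 with 8 IP and 2 SMInput reads, a log2(fold change) of 2.76 (0.44 to 6.04) and a −log10(P value) of 2.14. Replicate 2 had 19 clusters and 4 significant peaks, which were all 4 of its clusters in the 3′UTR of 1016 bases. From the stop codon on, they were chr15:79562376-79562418 with 6 IP and 4 SMInput reads (log2(fold change) 2.43), chr15:79562033-79562060 with 6 and 2 (3.43), chr15:79561786-79561830 with 8 and 2 (3.85) and chr15:79561630-79561641 with 5 and 1 (4.17). Replicate 1 had 3 clusters in the 3′UTR, none of which overlapped those of replicate 2. The one with the most IP reads, chr15:79561937-79562025, had 10 IP and 7 SMInput reads and a log2(fold change) of 1.28 (−0.26 to 2.91), and the others had 4 IP reads and 1 SMInput read each and a log2(fold change) of 2.76. The 3′UTR of Dmc1 thus gathered IP reads in both libraries, at significant peaks in 1 of them, and at different bases.

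Msh4 and Msh5, whose proteins form the clamp that stabilises crossover intermediates, had the fewest significant peaks. Msh4 had 24 clusters in replicate 1 and 5 in replicate 2, the fewest in the list. Its 1 significant peak, chr3:153867777-153867847 (minus strand, exon 16, coding), had 10 IP and 3 SMInput reads in replicate 1, a log2(fold change) of 2.50 (0.54 to 5.0) and a −log10(P value) of 2.18. Replicate 2 listed no cluster there and none in any exon of Msh4, and its cluster with the most IP reads, chr3:153880540-153880638 in intron 8, had 7 IP and 8 SMInput reads and a log2(fold change) of 1.66 (−0.04 to 3.31). Msh5 had 21 and 12 clusters and 0 significant peaks in both replicates. Its cluster with the most IP reads, chr17:35043479-35043551 (minus strand, intron 7), had 7 IP and 4 SMInput reads in replicate 1 and a log2(fold change) of 1.57 (−0.41 to 3.79). In replicate 2 the highest −log10(P value) was 1.82, at chr17:35046427-35046531 in the 5′UTR, with 5 IP and 3 SMInput reads and a log2(fold change) of 2.59 (0.22 to 5.27). Several Msh5 clusters had a fold above the threshold on 3 to 5 IP reads, and none of them reached the threshold of the −log10(P value).

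Mlh3, which encodes a MutL protein with nuclease activity needed for crossovers, had 36 and 17 clusters with 1 significant peak in each replicate, at places far apart. In replicate 1, chr12:85266252-85266354 (minus strand, coding part of exon 2) had 10 IP and 2 SMInput reads, a log2(fold change) of 3.08 (0.85 to 6.31) and a −log10(P value) of 2.84. In replicate 2, chr12:85261026-85261081 in intron 3 had 7 IP reads and 1 SMInput read, a log2(fold change) of 4.66 (1.69 to 10.15) and a −log10(P value) of 3.83, the highest fold among the clusters of the 9 genes. Neither position held a cluster in the other replicate. In the 3′UTR, chr12:85235185-85235325 had 19 IP and 25 SMInput reads in replicate 2, a log2(fold change) of 1.45 (0.51 to 2.37) and a −log10(P value) of 2.96, where chr12:85235196-85235239 in replicate 1 had 10 IP and 15 SMInput reads and a log2(fold change) of 0.18 (−1.14 to 1.43). These had the most SMInput reads of any Mlh3 cluster in each replicate, and their enrichment stayed under the fold threshold in both.

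Few reads lay behind these calls. Significant peaks of the 9 genes held 8 to 20 IP reads in replicate 1 and 4 to 13 in replicate 2, and 5 of 9 and 2 of 23 had at least 10. A cluster with 1 SMInput read needed 7 IP reads to pass in replicate 1 and 4 in replicate 2, whose SMInput library was deeper. In replicate 2, 7 of the 23 significant peaks had 4 or 5 IP reads, numbers that reached the thresholds in no cluster of replicate 1. With the listed P values adjusted over all clusters of a replicate by the Benjamini-Hochberg method (at most 0.05, fold threshold unchanged, chosen after the data were seen), 4 of the 282 clusters of replicate 1 passed, where 3.24% of all clusters did, and 16 of the 183 of replicate 2 (background 10.4%). Atm, Brca1, Mlh3 and Spo11 then had a peak in both replicates, and the shared peak of Atm passed in both, while that of Spo11 passed in replicate 2 only. The listed P values came from chi-square or Fisher's exact tests.

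**Figure D3:**
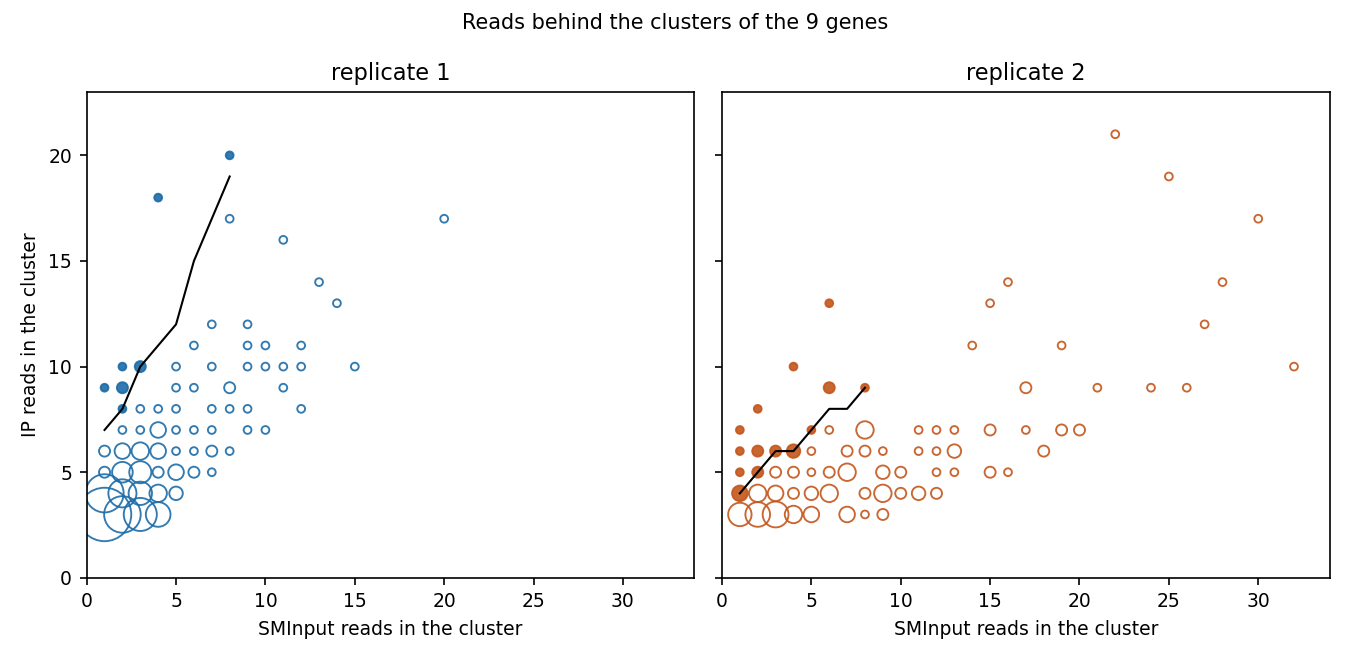
IP reads (vertical axis) against SMInput reads (horizontal axis) of the clusters of the 9 genes with recovered read numbers, for replicate 1 (left) and replicate 2 (right). The area of a circle is proportional to the number of clusters with those reads, filled circles are significant peaks, and the black line joins the fewest IP reads that pass for 1 to 8 SMInput reads, from 7 IP reads in replicate 1 and at 4 in replicate 2.

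The replicates met at few places. Of the 9 significant peaks of replicate 1, 4 overlapped any cluster of replicate 2 and 2 overlapped a significant one (22.2%, against 33.0% of all significant peaks of replicate 1). Of the 23 of replicate 2, 4 overlapped any cluster of replicate 1 and 2 a significant one (8.7%, against 18.5%). At the 4 meeting places of either list the intervals of the replicates overlapped. Over all clusters of the 9 genes, 58 of replicate 1 (20.6%, against 24.9% of all clusters) and 63 of replicate 2 (34.4%, against 37.3%) overlapped a cluster of the other replicate. Among the 69 overlapping pairs, 56 had a log2(fold change) above 0 in both and 3 reached 2 in both; of the 93525 pairs of all clusters, 72152 and 9626 did. Pearson's r between the replicates was 0.501 and Spearman's rho 0.373 across these pairs, which share genes and libraries and are given as a description, beside 0.649 and 0.604 for all pairs.

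The searched sequences were also counted under the significant peaks of the 9 genes. In windows of 100 bases around the centre, on the strand of the gene, GGAC was in 1 of 9 windows of replicate 1 and 3 of 23 of replicate 2, against 25.3% and 25.6% of all clusters. GAACA was in 0 of 9 and 2 of 23 (all clusters 9.38% and 8.98%), and AAACC in 0 of 9 and 0 of 23 (7.67% and 7.24%). CACA was in 5 of 9 and 7 of 23 (34% and 32%). No difference in frequency was tested.

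The stretches under all 10 significant peaks in CDS, and under the intron peaks with the most IP reads in each replicate (ties included), are shown to set the bases beside the read numbers, a choice made after the values were seen. They are read 5′ to 3′ on the strand of the gene from mm10, with the searched sequences in capitals. The first 6 lines give the coding bases under peaks of replicate 1 and the next 4 those of replicate 2, followed by the introns, of replicate 1 for intron 4 of Spo11 and of replicate 2 for the others.
Brca1 exon 5, chr11:101533976-101534027: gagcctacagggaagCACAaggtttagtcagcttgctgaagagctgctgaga
Brca1 exon 23, chr11:101489808-101489887: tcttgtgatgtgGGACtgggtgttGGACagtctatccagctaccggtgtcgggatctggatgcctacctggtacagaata
Brca2 last exon, chr5:150568999-150569048: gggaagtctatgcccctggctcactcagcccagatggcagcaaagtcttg
Dmc1 exon 14, chr15:79562516-79562565: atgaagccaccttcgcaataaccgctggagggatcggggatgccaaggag
Msh4 exon 16, chr3:153867777-153867842: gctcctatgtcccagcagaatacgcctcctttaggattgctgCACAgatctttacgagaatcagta
Mlh3 exon 2, chr12:85266252-85266354: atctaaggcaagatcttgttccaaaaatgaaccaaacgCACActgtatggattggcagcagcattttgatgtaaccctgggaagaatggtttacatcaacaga
Brca1 exon 10, chr11:101525775-101525845: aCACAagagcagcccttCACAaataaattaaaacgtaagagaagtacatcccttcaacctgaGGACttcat
Brca2 exon 10, chr5:150536554-150536567: ttcagaaaaatctt
Brca2 exon 11, chr5:150539169-150539216: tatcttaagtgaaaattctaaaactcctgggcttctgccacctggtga
Brca2 exon 11, downstream, chr5:150540361-150540423: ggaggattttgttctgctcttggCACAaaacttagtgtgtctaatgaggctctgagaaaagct
Spo11 intron 4, chr2:172984985-172985143: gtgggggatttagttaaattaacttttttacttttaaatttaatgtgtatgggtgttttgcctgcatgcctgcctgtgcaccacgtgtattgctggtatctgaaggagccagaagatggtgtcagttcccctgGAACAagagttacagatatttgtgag
Spo11 intron 1, chr2:172981648-172981685: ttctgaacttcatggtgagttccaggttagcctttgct
Mlh3 intron 3, chr12:85261026-85261081: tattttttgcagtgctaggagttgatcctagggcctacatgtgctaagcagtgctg
GGAC occurred 2 times in the exon 23 peak of Brca1 and 1 time in its exon 10 peak, which also held CACA 2 times. CACA occurred 1 time in each of the peaks in exon 5 of Brca1, exon 16 of Msh4, exon 2 of Mlh3 and, downstream, exon 11 of Brca2. GAACA occurred 1 time, in intron 4 of Spo11. In windows of 50 bases, 19.0% of all CDS clusters of replicate 1 held GGAC and 18.4% CACA, and in windows of 100 bases 8.82% of its intron clusters held GAACA; the peaks shown differ in length.

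Beside the 9 genes, 84 further genes of the same pathways were followed, of which 83 were matched to the annotation and 72 had clusters in both replicates. A significant peak was found in replicate 1 for 27 of the 78 with a cluster there (34.6%, background 40.8%) and in replicate 2 for 53 of 72 (73.6%, background 62.8%). Both replicates had one for 24 of 72 genes (33.3%, background 39.1%), and overlapping significant peaks were found for 9 (12.5%, background 16.6%). The pathway as a whole thus stayed near the background. By role, overlapping peaks were found for 0 of 14 break formation genes with clusters in both replicates, 3 of 24 strand exchange genes, 3 of 18 crossover and mismatch repair genes and 3 of 16 signalling genes.

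Among the crossover genes, Cntd1 and Prr19 had the most peaks shared by both replicates. Cntd1, a cyclin-like factor needed to mature crossover sites, had 12 significant peaks in each replicate, all in its 3′UTR on chr11 (plus strand). Several abut end to end, such as chr11:101288400-101288405 and chr11:101288406-101288436 in replicate 1. The counts are thus of listed peaks, not of separate bound stretches. In replicate 1, chr11:101288406-101288436 had 170 IP and 11 SMInput reads and a log2(fold change) of 4.71. In replicate 2, chr11:101288400-101288470 had 133 IP and 21 SMInput reads and a log2(fold change) of 4.51. Prr19, which encodes a partner of CNTD1, had 5 clusters in each replicate, all significant and all intronic. Some of these also abut, such as chr7:25301740-25301750 and chr7:25301751-25301814 in replicate 1. At chr7:25301751-25301814 (plus strand) replicate 1 had 204 IP and 8 SMInput reads and a log2(fold change) of 5.43, and replicate 2 had a log2(fold change) of 5.57 at chr7:25301741-25301825 with the highest −log10(P value) that is listed, 400. No cluster of the 9 genes with recovered reads had more than 21 IP reads.

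Strand exchange genes with overlapping peaks had them in the 3′UTR, given here with replicate 1 before replicate 2. For Rad51c, a gene of homologous recombination repair, the peaks were chr11:87379246-87379312 with 17 IP and 3 SMInput reads (log2(fold change) 3.26) and chr11:87379232-87379336 with 20 and 14 (2.36). Hsf2bp, whose protein binds BRCA2 in meiosis, had 17 IP and 4 SMInput reads at chr17:31946168-31946235 (2.85) and 10 and 9 at chr17:31946179-31946266 (2.00). Bard1, whose protein pairs with BRCA1, had 18 and 5 reads at chr1:71027735-71027854 (2.61) and 28 and 7 at chr1:71027765-71027894 (3.85). These partners of BRCA1 and BRCA2 thus had a 3′UTR peak that both replicates shared, which Brca1 and Brca2 themselves did not have.

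Among the signalling genes, Mdc1, which encodes an adaptor that spreads the break signal, had 2 shared peaks. In its CDS, chr17:35853059-35853143 had 51 IP and 14 SMInput reads in replicate 1 (log2(fold change) 2.63), and chr17:35853033-35853084 had 47 and 37 in replicate 2 (2.19). In its 3′UTR the values were 41 and 15 reads (2.21) and 50 and 41 reads (2.13). H2afx, the histone that ATM phosphorylates at breaks, had 98 IP and 35 SMInput reads in its 3′UTR in replicate 1 (2.25) and 94 and 67 in replicate 2 (2.34). Rad9b, a subunit of a checkpoint clamp, had 22 and 2 reads (4.22) and 18 and 2 (5.02) in its 3′UTR.

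The tissue label was checked against marker genes by the SMInput reads of the deepest cluster of each gene. All 9 germ cell markers had clusters in both replicates, with 1327 and 2492 such reads summed, led by the protamine gene Prm2 with 426 and 665. Those of Sertoli cells (4 of 4 genes) summed to 97 and 169 reads, led by Cldn11 with 66 and 117, and those of Leydig cells (4 of 4 genes) to 350 and 572, led by Insl3 with 319 and 521. Of the blood cell markers, Ptprc reached 1 and 2 reads, and Hbb-bs had 2 clusters in replicate 1 and none in replicate 2. Significant peaks were 36 of 183 clusters of the germ cell markers in replicate 1 (all clusters 4.92%) and 28 of 167 in replicate 2 (all clusters 13.2%), on Ddx4, Dazl, Acr and Acrv1, while Sycp3, Prm1, Prm2, Tnp1 and Tnp2 had 0 in both. Sertoli cell markers had 1 of 107 and 6 of 87, and Leydig cell markers 2 of 35 and 3 of 29. Among clusters with recovered reads, the 9 recombination genes had at most 20 SMInput reads in replicate 1 and 32 in replicate 2, both on Hormad1. Clusters without recovered reads can hold more. The listed fold of chr3:95560949-95560968 on Hormad1 in replicate 2 requires at least 49 SMInput reads.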

How the data were processed

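The submitters' notes name cutadapt, Bowtie2 and STAR for trimming and alignment to mm10; clusters were called by the authors per replicate. Listed log2 (the authors' IP over SMInput) and deposited −log10 (their test of it) were used as given, without a further test. Reads behind a cluster were the whole numbers that return both listed values, unique for 98.9% of the clusters so treated in replicate 1 and 99.2% in replicate 2. Intervals are 95% exact (Clopper-Pearson). A centre in several regions of basic GENCODE M21 transcripts counted as 3′UTR first, then CDS. Sequences are from the RefSeq genome GRCm38.p6. Replicates overlapped where clusters shared 1 base on the same strand. Clusters that abut were counted as listed, without merging. The members and lists were chosen with earlier results of these data known. Named in full were significant peaks that overlapped between replicates, the significant peak with the most IP reads of each gene and replicate, for a gene without one its cluster with the most IP reads (none reached a −log10(P value) of 2), and in each role of the wider list the 2 genes with the most shared peaks, ties included; other clusters were named after their values were seen. Python 3.11.15, pandas 2.3.3, scipy 1.17.1 and statsmodels 0.14.6 were used.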

Additional observations from a re-analysis of the deposited data

How the results depend on the processing

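At both thresholds of 3, the significant peaks of the 9 genes numbered 1 in replicate 1 and 4 in replicate 2, 1 gene (Brca1) had one in both, and 0 overlapped. With at least 10 IP reads required, 5 and 2 peaks were left, 1 gene (Atm) had one in both, and 1 peak of replicate 1 overlapped one of replicate 2. With the nearest transcription start site as the rule for the gene, 3 and 14 peaks and 3 genes (Brca1, Mlh3 and Spo11) were counted, and 0 peaks overlapped, since peaks in long genes and 3′UTRs then go to a neighbour. With adjusted P values, a setting chosen after the data were seen, replicate 1 had 4 peaks, and 1 overlapped. Leaving out each replicate in turn, 7 to 7 genes had a significant peak, Hormad1 or Msh4 among them. The looser fold threshold, any base inside the gene, the stricter overlap and the other order of regions moved no count by over a factor of 1.5. In windows of 50 bases, GGAC was under 1 instead of 3 peaks of replicate 2. No paired analysis was possible because clusters were called per replicate, with bounds that differed between the replicates. Each listed log2 and P value already sets the IP against the SMInput of the same replicate. Low read numbers limit these results, with medians of 10 and 6 IP reads under the significant peaks of the 9 genes in replicates 1 and 2. Over all significant peaks the medians were 13 and 8 IP reads.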

Other observations

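The strand of the clusters followed the genes. Inside the spans of the 9 genes, 6 clusters of replicate 1 and 0 of replicate 2 lay on the opposite strand, all 6 within Msh4 and none significant. In the 5 kb after the annotated ends, on the strand of the gene, replicate 1 had 5 clusters and replicate 2 had 1, and 0 were significant. They lay after Hormad1 and Msh5, where the windows also hold other genes of the same strand (Golph3l after Hormad1 and Sapcd1 after Msh5).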
